A study of Homo sapiens with 10 samples.

Results

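Transcripts of 9 genes, CST3, HINT1, FUNDC2, ITM2A, CDK2AP1, GTF3A, VKORC1, FAM178B and GFM1, were followed across all 10 libraries of an RNA editing experiment, out of 10312 genes that held at least 1 listed site. They were selected on the edited share itself, which had been found above the GFP control in most fusions of both deaminases, so that contrast is described here without a test. The experiment used the HUDEP-2 line, human progenitors of red blood cells that were immortalised to grow in culture. FAM46C, the product of the gene TENT5C, was fused through a linker to a deaminase and expressed from a doxycycline-inducible TRE promoter, and every construct was read in 1 library of poly(A) RNA. The FAM46C-APOBEC1 fusions carried linkers of 7, 27, 52 and 74 aa, and the FAM46C-ADARcd fusions carried linkers of 7, 27, 47 and 74 aa. The control for each set was GFP, joined with 7 aa to that deaminase, so at longer linkers bait and linker length differ together. All 10 libraries came from doxycycline-treated cells, for 48 h by the sample labels and 24 h by the series text, a conflict that could not be settled. No construct had a second library, so no difference below has a replicate check, and the intervals given (95%, Wilson for a share and Newcombe for a difference of shares) cover counting error only. As no molecular identifiers were read, several reads can stem from 1 RNA molecule. A read that covers several sites of a gene is counted at each of them. For shares summed over sites the intervals can therefore be too narrow even for counting error.

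FAM46C is a non-canonical poly(A) polymerase that lengthens the poly(A) tail at the 3′ end of messenger RNAs, and it is mutated in multiple myeloma. APOBEC1 deaminates C to U in RNA, and the catalytic domain of ADAR deaminates A to inosine, which is read as G. When either enzyme is tethered to an RNA-associated protein, edits mark RNAs that came near that protein, and as the enzymes differ in target base and preferred sequence, both kinds of edit are read at different bases of a transcript.

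The edited share is the percent of reads at a site, or summed over the sites of a gene body, that carried the edited base. The APOBEC1 tables held 18069 sites, and each library had between 627250 and 748913 reads on them, the median site having 30 to 36. The ADARcd tables held 16768 sites, with 479108 and 522608 reads in the GFP and 7 aa FAM46C libraries but 160157 to 203555 reads in the 3 longer fusions, where the median was 1 or 2 reads per site. No site was listed with fewer than 2 edited reads in its best library, so low editing in every library is not represented. Over all genic sites with a read in all 5 libraries, the share ran from 1.15% (74 aa) to 4.09% (7 aa) with APOBEC1 against 2.81% for GFP, and from 1.43% (7 aa) to 3.43% (74 aa) with ADARcd against 2.76% for GFP. At TENT5C, which each FAM46C construct carries, GFP-APOBEC1 gave 3.13% and the FAM46C-APOBEC1 fusions 85.5% to 89.2%, while GFP-ADARcd gave 0 of 128 reads and the FAM46C-ADARcd fusions 3.98% to 12.3%. Sites were found in 8 of 12 erythroid marker genes and in none of 6 lymphoid and myeloid or 2 fibroblast markers.

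The member gene bodies held 97 APOBEC1 sites and 21 ADARcd sites, of which 87 and 13 lay in a member's exon with the target base on its strand. In 8 of the 9 genes the most edited ADARcd site lay in the 3′ UTR, and 6 genes had only 1 ADARcd site. The sequences below show where the APOBEC1 and ADARcd edits of a transcript came closest. All are on GRCh38, given 5′ to 3′ on the strand of the gene from GENCODE release 29 transcripts, with the edited C and the edited A in capitals.
CST3, chromosome 20, C at 23633790 and A at 23633780: accaggagaCagacagagaAggcagcagg
FUNDC2, chromosome X, A at 155054948 and C at 155054963: ccatgcaAgacacttatgagaaCacattac
ITM2A, chromosome X, C at 79360858 and A at 79360839: tttttCtttgaatttatagggtttAgattt
CDK2AP1, chromosome 12, C at 123261219 and A at 123261190: CaatttttaaaaatgcacaagttataaatA
GTF3A, chromosome 13, C at 27435623 and A at 27435633: tttaaaggaCtgcagaccaAggagcgagc
VKORC1, chromosome 16, A at 31091022 and C at 31091003: agattAccccctcctcctgccataCccgca
FAM178B, chromosome 2, C at 96875965 and A at 96875964: ccctgggcctCAgtcctcccca
In CST3 and GTF3A the 2 edited bases were 10 nt apart, in FUNDC2 15 nt, in ITM2A and VKORC1 19 nt, in CDK2AP1 29 nt, and in FAM178B they were neighbours. None of these C bases was the most edited of its gene, and in FUNDC2, VKORC1 and FAM178B it had 2 edited reads in all. HINT1 carried its strong edits farther apart, and the most edited sites of HINT1, FUNDC2 and FAM178B are shown because each held more edited reads than any other site of its gene with that deaminase.
HINT1, chromosome 5, A at 131159386: aatttccagtAtgttaagtaa
HINT1, chromosome 5, C at 131159318: aaaccgcataCataataaaag
FUNDC2, chromosome X, C at 155054892: cctcccagtaCaccccctact
FAM178B, chromosome 2, A at 96876152: tgatgaggcaAgagcctgccc
In HINT1 the letters AATAAA, the usual polyadenylation signal, start 3 nt after the edited C.

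Summed over the sites of each gene, the APOBEC1 share lay above GFP in 9 of the 9 genes with the 7 aa and the 27 aa fusion, in 7 with 52 aa and in 6 with 74 aa. Over all 6192 genes with a readable APOBEC1 site, 46.5%, 35.1%, 31% and 18.9% lay above GFP in these 4 fusions. With ADARcd, 8 genes lay above GFP at 7 aa and 27 aa and 9 at 47 aa and 74 aa, where 20.6%, 34.7%, 30.7% and 31.8% of 4772 genes did. As this contrast chose the genes, nothing is read from the difference between these numbers. The choice itself was met only in part: 7 of the 9 lay above GFP in at least 3 of 4 fusions of both deaminases, as 3.49% of the 2897 genes with sites of both did, and 6 lay above in all 8 fusions, as 0.414% did. CDK2AP1 reached 2 of 4 fusions with APOBEC1, and GFM1 reached 2 of 4 with each deaminase. Intervals printed beside a difference from GFP show its counting error and are not used to call it.

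**Figure D1:**
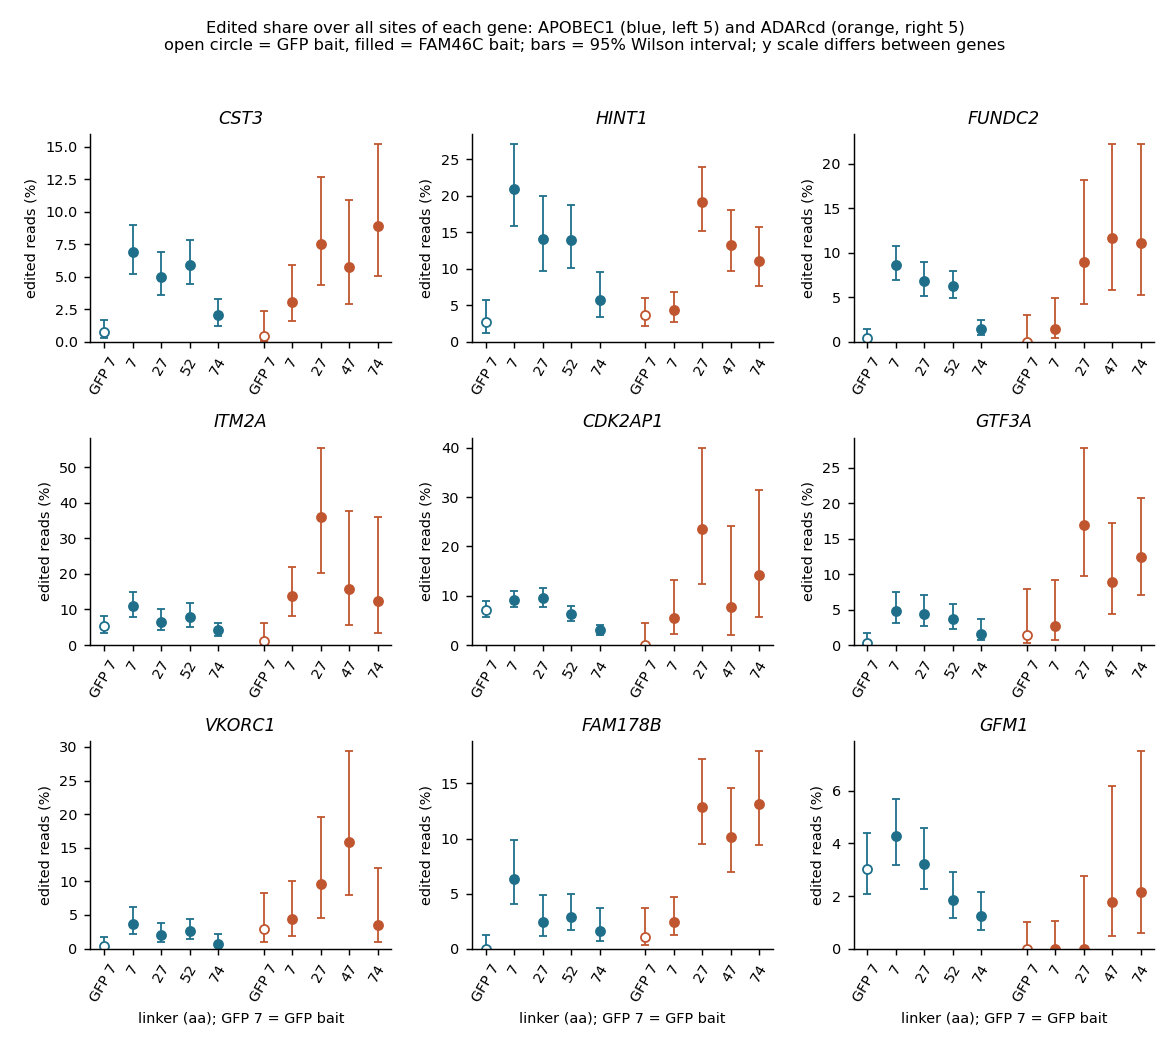
Edited share in percent (vertical axis, scale set per gene) in each of the 10 libraries, APOBEC1 in blue and ADARcd in orange, with the linker length in aa along the horizontal axis; open circles are GFP, filled circles FAM46C, and bars the 95% Wilson interval. In HINT1 the 7 aa APOBEC1 fusion stood at 20.9% and the 27 aa ADARcd fusion at 19.2%, against 2.67% and 3.58% with GFP, whereas GFM1 stayed at or below 4.27% throughout.

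CST3, ITM2A and VKORC1 encode proteins of the secretory pathway. CST3 encodes cystatin C, a secreted inhibitor of cysteine proteases. Its 9 APOBEC1 sites, all in the 3′ UTR of exon 3 of 3, gave 0.713% edited reads with GFP (0.305 to 1.66, 5 of 701 reads) and 6.87%, 4.95%, 5.91% and 2.01% with the 7, 27, 52 and 74 aa fusions. Its only ADARcd site gave 0.418% with GFP (1 of 239 reads) and 3.03%, 7.5%, 5.71% and 8.87% with the 7, 27, 47 and 74 aa fusions. All 8 fusions were above GFP, from 1.29 points (0.0643 to 2.64) for 74 aa APOBEC1 to 8.45 points (4.16 to 14.8) for 74 aa ADARcd. Edits were spread over the 3′ UTR of CST3: the most edited C, at 23633841, held 27.6% of the edited reads of the gene. That C was read as edited in 1.66% of GFP reads and in 10.1%, 6.18%, 3.61% and 0.513% with the 4 fusions in order of linker, so at 74 aa it lay below GFP. The C at 23633790, shown above 10 nt from the edited A, was at 0 of 148 reads with GFP, which allows up to 2.03%, and at 4.17%, 5.30%, 9.09% and 3.33% with the fusions.

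ITM2A encodes a type II membrane protein with a BRICHOS domain. Its 15 APOBEC1 sites gave 5.39% with GFP (3.52 to 8.18, 371 reads) and 10.8%, 6.50%, 7.81% and 4.10% with the fusions. The difference from GFP was 5.46 points (1.32 to 9.93) at 7 aa, and the 74 aa fusion was lower than GFP by -1.29 points (-4.44 to 1.62). The single ADARcd site of ITM2A gave 1.16% with GFP (1 of 86 reads), 13.7% at 7 aa, 36% at 27 aa (20.2 to 55.5), 15.8% at 47 aa and 12.5% at 74 aa. These last 3 libraries had 25, 19 and 16 reads there, and their intervals overlapped each other and that of 7 aa. ITM2A lay above GFP in all 4 ADARcd fusions, while 3 of its 15 APOBEC1 sites lay above GFP in all 4 fusions and 3 in none.

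VKORC1 encodes the vitamin K epoxide reductase of the endoplasmic reticulum, the target of warfarin. Its 8 APOBEC1 sites gave 0.322% with GFP (1 of 311 reads) and 3.70%, 1.99%, 2.58% and 0.610% with the fusions. Its ADARcd site gave 2.91% with GFP (3 of 103 reads) and 4.46%, 9.68%, 15.9% and 3.51% with 7, 27, 47 and 74 aa. Every fusion was higher than GFP, with ADARcd by 0.596 points (-5.28 to 9.22) at 74 aa and 13.0 points (3.41 to 26.6) at 47 aa. All of the VKORC1 sites also lie in the body of the gene AC135050.2, and without strand in the labels reads of both genes cannot be told apart.

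FUNDC2 encodes a protein of the mitochondrial outer membrane. It had 11 APOBEC1 sites, 10 of them in the 3′ UTR, with 0.385% edited reads for GFP (2 of 519 reads) and 8.65%, 6.77%, 6.22% and 1.37% for the fusions. Its ADARcd site was edited in 0 of 123 GFP reads, which allows up to 2.44%, and in 1.37%, 8.96%, 11.7% and 11.1% with the fusions. All 8 fusions were above GFP, by 0.986 points (-0.189 to 2.09) at 74 aa APOBEC1 and 11.7 points (5.04 to 22.2) at 47 aa ADARcd. The C at 155054892 held 44.7% of the edited APOBEC1 reads of FUNDC2, at 1.79% with GFP and 33.3%, 19.1%, 29.5% and 10.1% with the fusions. All but 1 of the FUNDC2 sites lay 5214 to 5438 nt before the annotated transcript end, yet read numbers were lower toward its end, at 56 to 105 per library at 155054892 and 6 to 16 at 155055089, the site nearest the end. No AATAAA or ATTAAA started closer than 463 nt after that last site.

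HINT1 encodes a histidine triad hydrolase of nucleotide conjugates. It had the highest summed APOBEC1 share of the 9 genes in the 7, 27, 52 and 74 aa fusions, at 20.9%, 14.0%, 13.9% and 5.73% against 2.67% with GFP (1.23 to 5.69, 6 of 225 reads). Its 2 APOBEC1 sites, 12 nt apart on either side of the AATAAA, were each above GFP in all 4 fusions. The C at 131159318 was edited in 3.11% of GFP reads and in 19.0%, 13.2%, 14.1% and 6.17% of the reads of the fusions, on 121 to 184 reads. Just past the AATAAA, at 131159306, only 49 to 65 reads remained, with 1.56% edited for GFP and 26.5%, 16%, 13.1% and 4.62% for the fusions, although the annotated end of the transcript lies 279 nt farther on.

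With ADARcd, the A of HINT1 at 131159386 was edited in 0.347% of 288 GFP reads and in 3.85%, 20.8%, 14.2% and 11.0% in the 7, 27, 47 and 74 aa fusions. It held 81.8% of the edited ADARcd reads of HINT1. The 7 other HINT1 sites, 6 of them intronic, had as few as 1 to 3 reads in their poorest library, so the summed values of 3.58% (GFP), 4.33%, 19.2%, 13.3% and 11.0% mix 1 deeply read site with 7 thin ones. Without the site at 131159386, HINT1 was below GFP in all 4 ADARcd fusions, by -3.32 points at 27 aa and -5.95 points at 47 aa.

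CDK2AP1 encodes an inhibitor of the cell cycle kinase CDK2 and a subunit of the NuRD chromatin complex. Its 19 APOBEC1 sites were already edited with GFP, at 7.10% (5.61 to 8.95, 65 of 915 reads), and at 9.20%, 9.49%, 6.3% and 2.98% with the fusions. The difference from GFP was 2.39 points (-0.152 to 4.95) at 27 aa, and the 74 aa fusion was below GFP by -4.12 points (-6.16 to -2.22). Sites of its 3′ UTR differed in direction. The C at 123261237 stood at 23.1% for GFP and 46.9%, 40.5%, 23.7% and 11.1% for the fusions, whereas that at 123261316 stood at 27.5% for GFP and 6.78%, 25%, 15.1% and 4.84% for the fusions (a site chosen after its values were seen). The ADARcd site of CDK2AP1 went from 0 of 81 GFP reads, which allows up to 3.70%, to 5.48%, 23.5%, 7.69% and 14.3%, with 26 to 73 reads in the fusions. CDK2AP1 therefore lay above GFP in all 4 ADARcd fusions but in 2 of 4 APOBEC1 fusions. Of its 19 APOBEC1 sites, 16 also lie in AC068768.1, and over the 3 others all 4 fusions were below GFP, by -2.10, -3.85, -2.66 and -2.75 points at 7, 27, 52 and 74 aa. Its only ADARcd site also lies in the body of another gene, and without strand in the labels reads of both cannot be told apart there.

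GTF3A encodes TFIIIA, the zinc finger factor that starts transcription of 5S ribosomal RNA genes. Its 4 APOBEC1 sites lay 38 to 65 nt before the transcript end and gave 0.315% with GFP (1 of 317 reads) and 4.84%, 4.31%, 3.60% and 1.59% with the fusions. Its ADARcd site, 55 nt before the end, gave 1.47% with GFP (1 of 68 reads) and 2.67%, 16.9%, 8.86% and 12.4% with the fusions. All 8 fusions were higher, by 1.20 points (-5.49 to 7.85) at 7 aa ADARcd and 15.5 points (5.82 to 26.4) at 27 aa ADARcd. All APOBEC1 sites but that at 27435623 also lie in the body of MTIF3. The site at 27435623 gave 0 of 98 GFP reads, which allows up to 3.06%, and 1.57%, 7.69%, 3.65% and 1.77% with the fusions.

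FAM178B encodes a little-studied protein related to SLF2. Not 1 of 301 reads was edited at its 7 APOBEC1 sites with GFP, which allows up to 0.997%, against 6.36%, 2.40%, 2.86% and 1.59% with the 4 fusions. Its 4 ADARcd sites gave 1.03% with GFP (2 of 195 reads), 2.42% at 7 aa, 12.9% at 27 aa, 10.2% at 47 aa and 13.1% at 74 aa. Every fusion was above GFP, with APOBEC1 by 1.59 points (0.0378 to 3.67) at 74 aa and with ADARcd by 1.39 points (-1.50 to 3.79) at 7 aa and 12.1 points (7.57 to 17.0) at 74 aa. FAM178B was the gene with the most ADARcd sites in its 3′ UTR, and 2 of the 4 were above GFP in all fusions: at 96876152 from 3.28% to 4.26%, 23.2%, 19.2% and 19.8%, and at 96876003 from 0 of 40 reads (a limit of 7.5%) to 5.48%, 15.8%, 13.7% and 18.9%. At the C and A that are neighbours in FAM178B, the edits were read in different libraries, the C in 2 of 45 reads at 7 aa APOBEC1 and the A in 2 of 48 reads at 27 aa ADARcd.

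GFM1 encodes the mitochondrial elongation factor G1. Over the 22 APOBEC1 sites in its body the share was 3.02% with GFP (2.07 to 4.39, 26 of 861 reads) and 4.27%, 3.23%, 1.83% and 1.23% with the fusions. Of these, 8 lie in an intron of GFM1 and in the 3′ UTR of LXN, a gene on the opposite strand that encodes latexin, a carboxypeptidase inhibitor, 50 to 133 nt before the LXN transcript end. On the LXN strand all 8 are a C, as in this stretch around one of the pair with the most edited reads, 18 each.
LXN, chromosome 3, C at 158666525: gtcttgattaCagtatagaac
The 8 LXN sites gave 1.56% with GFP (6 of 384 reads) and 6.98%, 3.91%, 2.48% and 1.65% with the fusions. The 12 exonic sites with a C on the GFM1 strand gave 4.84% with GFP (18 of 372 reads) and 1.88%, 3.42%, 1.52% and 0.556%, below GFP in all 4 fusions. With ADARcd, GFM1 had no edited read in 369 GFP, 363 7 aa and 136 27 aa reads, and 2 edited reads each at 47 aa (1.75%) and 74 aa (2.15%). At the site with an A on its strand, in the coding sequence of exon 13 of 18, only the 74 aa library had edited reads, 2 of 47. Of the 5 sites of the GFM1 body above GFP in at least 3 APOBEC1 fusions, 4 were thus a C of the LXN 3′ UTR, while the GFM1 exons together were below GFP. At those 8 sites the C that APOBEC1 edits is on the LXN strand and not on that of GFM1. Without strand in the labels, unedited reads of GFM1 and LXN there cannot be told apart.

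Other genes met the same condition. At least 3 of 4 fusions of each deaminase lay above GFP in 94 genes outside the 9, and the 3 of them with the most GFP reads were UBR4, NPM1 and POLR1C. NPM1, which encodes nucleophosmin, gave 1.11% with GFP-APOBEC1 and 7.24%, 8.28%, 4.78% and 2.25% with the fusions. Its ADARcd share was 2.21% with GFP and 2.26%, 3.23%, 1.09% and 5.49% with the fusions, each on 1 to 5 edited reads. UBR4, a ubiquitin ligase gene, stayed at or below 3.64% and POLR1C, a subunit gene of RNA polymerases I and III, at or below 2.28% in every library. ITM2A, with 3 of 4 APOBEC1 fusions above GFP, lay just inside the condition, and CDK2AP1, with 2 of 4, just outside.

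Where the edits lay was not used to choose the genes, but it is not independent of the choice. From 0 of 2 APOBEC1 sites in HINT1 to 7 of 7 in FAM178B had no edited read with GFP. Such sites are listed through edits in the fusions that chose the genes. Along the spliced transcript, the 87 exonic APOBEC1 sites of the members were a median of 352 nt before the annotated end, against 1140 nt for all 16606 such sites, and 92.0% against 67.9% were in a 3′ UTR. For ADARcd the medians were 180 nt for the 13 member sites and 2075 nt for all 7085, with 92.3% and 39.5% in a 3′ UTR. Sites of 1 gene share a transcript, so these are descriptions without a test. CST3 (33 to 193 nt), GTF3A (38 to 65 nt) and FAM178B (20 to 397 nt) had their APOBEC1 sites nearest the end, and the sites of FUNDC2 were the farthest from it.

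In each of the 8 genes other than GFM1 the most edited APOBEC1 site and the most edited ADARcd site lay in the same exon, 17 to 203 nt apart with a median of 58.5 nt. Within 100 nt of the most edited A of these 8 genes lay 41 APOBEC1 sites. CST3 and FUNDC2 had 9 each, VKORC1 6, ITM2A and CDK2AP1 5 each, GTF3A 4, HINT1 2 and FAM178B 1. The side differed by gene: all 19 APOBEC1 sites of CDK2AP1 were upstream of its edited A, while both of HINT1 and 7 of the 9 of CST3 were downstream. Counting any pair, the nearest C and A were a median of 19 nt apart in the 9 genes and 342 nt apart over 2123 transcripts with exonic sites of both deaminases. They were within 30 nt in 7 of the 9 genes, all but HINT1 (68 nt) and GFM1 (556 nt), and in 10.6% of the 2123. The members carried more APOBEC1 sites (median 9 against 2), and among the 579 transcripts with at least 4 such sites the median was 157 nt and 16.6% were within 30 nt.

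**Figure D2:**
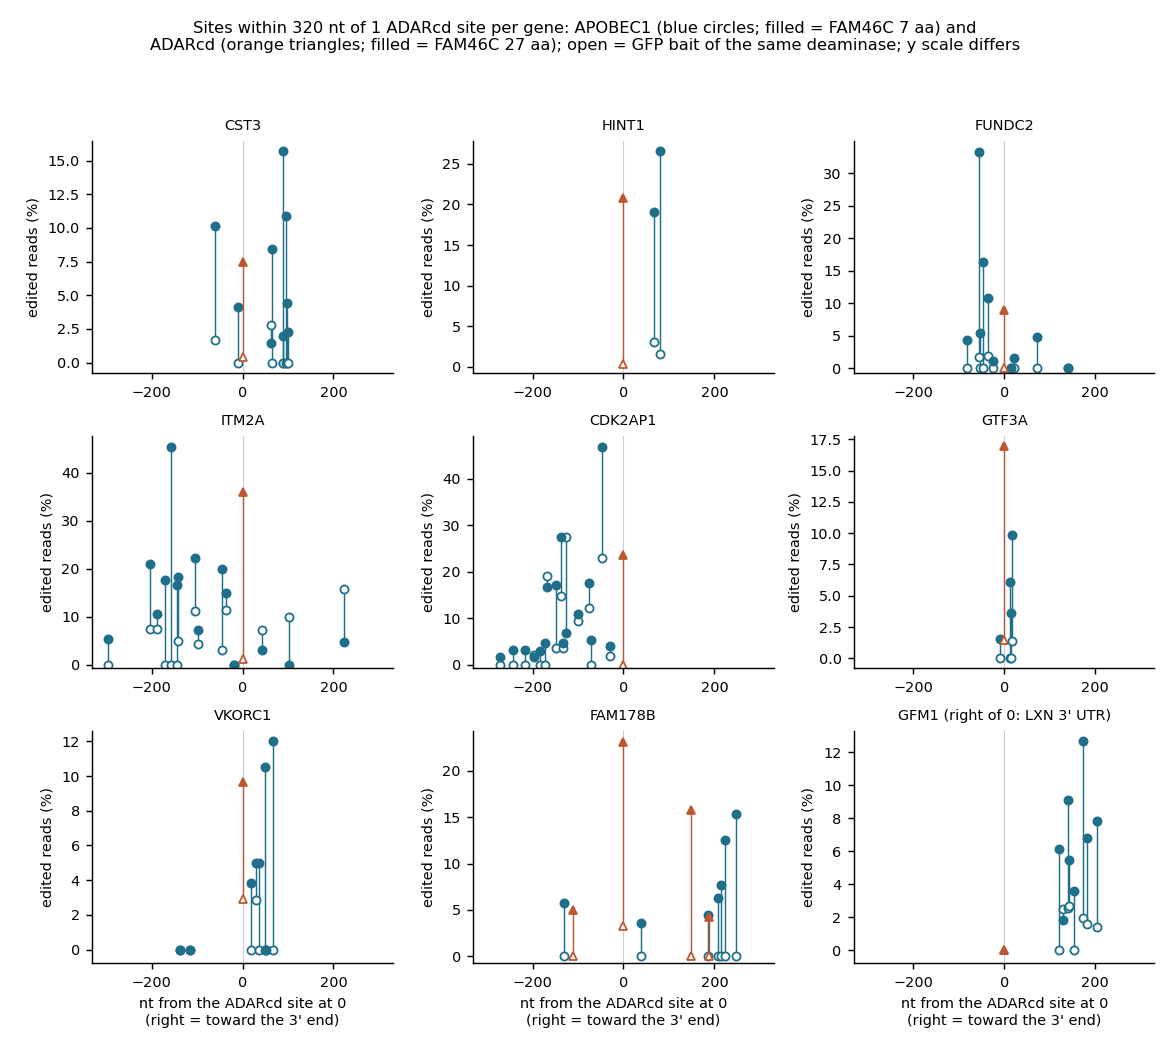
Edited share in percent (vertical axis, scale set per gene) of each site within 320 nt of 1 ADARcd site per gene, placed at 0 on the horizontal axis (nt, right toward the 3′ end of the gene). Blue circles are APOBEC1 sites (filled, 7 aa FAM46C) and orange triangles ADARcd sites (filled, 27 aa FAM46C), each joined to its open GFP value; in CDK2AP1 all APOBEC1 sites lie left of the A, and in GFM1 those to the right are the sites in the LXN 3′ UTR.

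APOBEC1 is known to favour a C after A or U, and ADAR an A after U or A and before G. An A or T preceded the edited C at 84 of the 87 member sites (96.6%) and at 81.8% of all APOBEC1 sites. At the 13 ADARcd sites an A or T preceded the edited A in 84.6% (57.8 to 95.7) against 54.5% of all, and a G followed in 61.5% against 46.0%. In the pairs shown above, the A of CST3, FUNDC2, ITM2A, GTF3A and FAM178B is followed by G, and that of CDK2AP1 and VKORC1 by C. AATAAA, searched on the transcript strand, started within 300 nt after the edit at 48.3% of member APOBEC1 sites and 39.5% of all, and at 38.5% of member ADARcd sites and 16.4% of all. A match or its absence in such a window is a description of letters only.

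The comparison among FAM46C fusions, each longer linker against 7 aa, did not use GFP. The fusion shares it compares did enter the choice of the genes. The number of members called is therefore described and not read as support. Each gene was tested by a two-sided Fisher's exact test on edited and unedited reads with Benjamini-Hochberg adjustment over all genes, called at an adjusted p under 0.05; it compares 2 libraries, not 2 conditions. With APOBEC1 the 74 aa fusion was lower than 7 aa in CST3, HINT1, FUNDC2, ITM2A, CDK2AP1, FAM178B and GFM1, 7 of the 9 genes, where 11.4% of 6192 genes were called lower. FUNDC2 dropped from 8.65% to 1.37%, by -7.28 points (-9.48 to -5.24, adjusted p = 4.156e-10 in Fisher's exact test), and HINT1 from 20.9% to 5.73%, by -15.2 points (-21.8 to -8.81, adjusted p = 9.463e-05 in Fisher's exact test). GTF3A and VKORC1 differed by -3.25 and -3.09 points, with adjusted p of 0.132 and 0.0611 in the same test. At 27 aa and 52 aa 0 of the 9 were called against 7 aa with APOBEC1 in Fisher's exact test, with 1 (FAM178B) and 3 (CDK2AP1, FAM178B and GFM1) lower at an unadjusted p under 0.05. Over all genes 0.242% and 0.42% were called lower. No gene was called higher in these 3 comparisons by the same test, and 69, 42 and 21 genes were higher at an unadjusted p under 0.05 with 27, 52 and 74 aa.

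With ADARcd the calls were in the opposite direction. HINT1 and FAM178B were called higher than 7 aa at 27 aa and at 47 aa, where 1.32% and 0.859% of 4772 genes were called higher, and FAM178B also at 74 aa (2.14% of genes called higher and 0.021% lower). FAM178B gained 10.5 points at 27 aa (6.39 to 15.0, adjusted p = 0.0002794 in Fisher's exact test) and HINT1 14.9 points (lower bound 10.1, adjusted p = 9.081e-07 in Fisher's exact test). At 74 aa HINT1 was 6.69 points higher, with an adjusted p of 0.0658. Of the other genes, ITM2A, CDK2AP1, GTF3A and FUNDC2 stood 22.3, 18.1, 14.3 and 7.59 points higher at 27 aa than at 7 aa. They did not pass Fisher's exact test after adjustment (adjusted p 0.302, 0.288, 0.164 and 0.239), on 25 to 67 reads in the 27 aa library. At an unadjusted p under 0.05 in that test, 6, 4 and 6 of the 9 genes were higher at 27, 47 and 74 aa, and 0 lower. The 6 at 27 aa were these 4 with HINT1 and FAM178B. Over all genes 492, 531 and 669 were higher and 10, 3 and 3 lower at that threshold. The whole libraries moved the same way: the odds of an edited read over all genic sites were 0.272 times those of 7 aa in the 74 aa APOBEC1 library, and 2.28, 2.1 and 2.45 times in the 27, 47 and 74 aa ADARcd libraries. Tested against these ratios in place of no difference by the same Fisher's exact test, 0 of the 9 genes were called in each of the 6 comparisons. At an unadjusted p under 0.05 this left CDK2AP1 (27 aa APOBEC1), HINT1 (27 aa ADARcd) and FAM178B (27 and 74 aa ADARcd), all 3 higher. How far the shift of whole libraries accounts for the linker calls was not tested beyond this.

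Relatives and partners of the 9 genes were read from a list of 25, of which 14 had a readable site. With APOBEC1, 9, 7, 8 and 5 of 12 such genes lay above GFP in the 7, 27, 52 and 74 aa fusions. Over all genes 46.5%, 35.1%, 31% and 18.9% did. With ADARcd it was 1, 5, 2 and 1 of 7 in the 7, 27, 47 and 74 aa fusions, beside 20.6%, 34.7%, 30.7% and 31.8% of all genes. CST7, which encodes cystatin F, a relative of CST3, was above GFP in all 4 ADARcd fusions, from 10.5% (2 of 19 reads) to 18.9%, 53.3%, 33.3% and 54.2% at its 1 site. With APOBEC1 CST7 had 0 of 24 GFP reads edited and 4.35%, 4.76%, 0 of 55 and 0 of 72 with the fusions. ITM2B, a relative of ITM2A, was above GFP in all 4 APOBEC1 fusions over 35 sites, from 2.36% to 5.34%, 4.58% and 3.66% in the 7, 27 and 52 aa fusions and by less at 74 aa, and had no readable ADARcd site. GTF3C1, GTF3C2, GTF3C3 and GTF3C4, subunits of the factor that works with TFIIIA, had 0 edited reads on 18 to 133 reads each in the 7, 47 and 74 aa ADARcd fusions, against 0 to 4 edited reads with GFP. At 27 aa GTF3C1, GTF3C2 and GTF3C3 had 2 edited reads each, at 4.55%, 6.25% and 4.65%, above GFP at 1.92%, 0 of 80 reads and 1.68%, and GTF3C4 had 0 of 21. With APOBEC1 all 4 fusions were below GFP in GTF3C1, on 2 of 17 GFP reads against 0 of 12 to 14, which allows up to 21.4% to 25%. In GTF3C2 all 4 were above GFP, at 0.840% against 1.06% to 1.90%, on 2 to 4 edited reads per library. Neither direction is resolved at these counts. GTF3C3 lay above GFP at 27 and 52 aa APOBEC1, on 2 and 4 edited reads against 0 of 42 with GFP. GFM2, a relative of GFM1, gave 3.45% with GFP-APOBEC1 and 13.2%, 8.11%, 12.2% and 4.92% with the fusions, on 37 to 61 reads. With ADARcd GFM2 gave 1.67% with GFP and was above it at 47 aa only (6.06%, 2 of 33 reads). It had 0 of 138, 0 of 39 and 0 of 42 reads edited at 7, 27 and 74 aa.

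The authors' deposited tables list sites per fusion with a p-value. With APOBEC1, in order of linker length, 379, 199, 167 and 25 genes are named in the authors' deposited tables, and with ADARcd 31, 237, 369 and 360. Among them the authors' deposited tables name 7, 6, 5 and 2 of the 9 genes with APOBEC1 and 5, 7, 6 and 7 with ADARcd. Since the authors' deposited tables set the same fusions against GFP, nothing is read from these counts. CST3 was listed for all 8 fusions in the authors' deposited tables, HINT1 and FUNDC2 for 7, ITM2A and CDK2AP1 for 5, GTF3A and FAM178B for 4 and VKORC1 for 1. GFM1 was named for 4 in the authors' deposited tables, but both APOBEC1 positions are in the LXN 3′ UTR, both 7 aa ADARcd positions lie past the annotated end of GFM1, and 1 position, at 74 aa ADARcd, is in a GFM1 exon.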

How the data were processed

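Doxycycline-induced HUDEP-2 libraries were compared within each deaminase, 1 library per construct. Per the submitters' processing notes, HISAT2 2.2.1, SAMtools 1.18, Picard 2.27.1 and GRCh38 were used, with no role or order; the sources used here do not give how sites were chosen. The authors deposited, per library, counts of reads with the reference and the edited base at each site, and, per fusion, a table with a p-value per site, which was used only for which genes it lists. Its other 48 per-sample columns match no single label and were not used.

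Sites were placed with GENCODE release 29 (basic transcripts) and counted for every gene body that spans them; 2 APOBEC1 positions with 2 records were left out. A gene's share sums edited and all reads over its sites, where each of the 5 libraries had at least 1 read. The highest read number of a site was 238 to 314 per library. Fisher's exact test (SciPy 1.17.1) was tested on simulated data. A share of 0 is given with the limit that 3 counts allow. Variant-like sites are those without the target base on the gene strand or with a pooled share of at least 40%. The text names the 9 genes, some of their listed relatives with a site, TENT5C, and the 3 other genes with most GFP reads that met the choice. Of the relatives with a readable site, CSTB, ITM2C, CDK2AP2, GTF3C6, VKORC1L1, GGCX and SLF2 enter the counts only, without values of their own. The sites planned for naming were the most edited and the nearest ones of the 9 genes, and not all of them are printed. Genes and lists were chosen with earlier results of these data known.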

Additional observations from a re-analysis of the deposited data

Results flagged for a closer look

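In 7 of the 9 genes, the share at the 27 aa linker was lower than at 7 aa with APOBEC1 and higher with ADARcd, so the same change of linker went in opposite directions with the deaminases. Over all genes, 49.2% of 6192 were lower at 27 aa with APOBEC1 and 40.7% of 4772 higher with ADARcd. These shares come from different sets of genes. The share of genes that changed in both ways at once was not computed, so the 7 of 9 has no matching value over all genes. The differences, in percentage points, were -1.92 and 4.47 for CST3 and -6.88 and 14.9 for HINT1. They were -1.88 and 7.59 for FUNDC2 and -4.35 and 22.3 for ITM2A. GTF3A gave -0.528 and 14.3, VKORC1 gave -1.72 and 5.21, and FAM178B gave -3.96 and 10.5. Of the 7 APOBEC1 differences 0 were called by Fisher's exact test after adjustment, with FAM178B alone at an unadjusted p under 0.05, and all their intervals but that of FAM178B include 0; with ADARcd HINT1 and FAM178B were called. Each is 1 library against 1 library, and the difference between the deaminases was not tested. The overall shares of the libraries moved the same way, from 4.09% to 2.97% with APOBEC1 and from 1.43% to 3.19% with ADARcd.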

How the results depend on the processing

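No paired analysis was possible because each construct has 1 library. Of 536 member differences from GFP recomputed under 8 alternatives, 497 stayed within the counting interval of the reported difference, and 22 changed sign. Several alternatives take no site from some of the genes and then return the reported difference, as with CST3 at 7 aa APOBEC1 (6.15 points). The number that stayed is therefore no measure of stability. Among the 22 were CDK2AP1 with 74 aa APOBEC1 when scaled to the overall share (0.196 points), and HINT1 with ADARcd. HINT1 changed sign without its most edited site (-3.32, -5.95 and -1.51 points at 27, 47 and 74 aa) or as a mean of site shares (-5.55 and -1.19 points at 47 and 74 aa). Removing that site leaves 7 thinly read ones, and otherwise the cause was not tested. Without the most edited site only 3 genes kept an ADARcd site, of which 1, 1, 1 and 2 lay above GFP at 7, 27, 47 and 74 aa. The counts of genes above GFP stayed within 1.5 times the reported ones under every other alternative. Scaled to the overall share, 7, 9, 7 and 8 of 9 genes lay above GFP at 7, 27, 52 and 74 aa APOBEC1. ITM2A at 74 aa APOBEC1 then changed from -1.29 to 4.66 points, and CDK2AP1 at 7 aa from 2.10 to -0.782 points. The place of a gene above or below GFP thus depended in part on the overall share of the library. Leaving out sites in more than 1 gene removed VKORC1. With APOBEC1 it gave 6, 6, 6 and 5 of 8 genes above GFP at 7, 27, 52 and 74 aa, in place of 9, 9, 7 and 6 of 9. Giving each site to 1 gene, an alternative added after seeing the data, put GFM1 below GFP at 7 aa APOBEC1 (-2.80 points) and 27 aa (-1.64 points).

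Against the odds ratio of all reads, linker calls over all genes numbered 0, 3 (2 higher, 1 lower) and 19 (18 higher, 1 lower) at 27, 52 and 74 aa APOBEC1, in place of 15, 26 and 704. With ADARcd they numbered 3 (0 higher, 3 lower), 2 (1 higher, 1 lower) and 10 (3 higher, 7 lower) at 27, 47 and 74 aa, in place of 63, 41 and 103, and 0 of the 9 genes were called. Requiring 10 reads per site left 6 of 7 members called at 74 aa APOBEC1, without ITM2A. To the nearest annotated end of any transcript, the members' medians were 250 nt (APOBEC1) and 180 nt (ADARcd), against 527 nt and 1357 nt for all sites. Sequence context was read at exonic sites only, so that alternative was not run apart. Depth limits the ADARcd fusions of 27, 47 and 74 aa most, with 16 to 34 reads at the ITM2A and CDK2AP1 sites.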
